A study of Mus musculus with 4 samples.

Results

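RNA of bleomycin (BLM)-treated skin was examined for the CXC chemokine ligands, chosen as the rows of the deposited gene table named Cxcl1, Cxcl2, Cxcl3, Cxcl5, Cxcl9, Cxcl10, Cxcl12, Cxcl13, Cxcl14 or Cxcl16. These are 10 of the 24441 genes in the table, and the rule matches names, without a threshold on measured values. The 4 libraries came from skin of GSDMD-/- (KO) mice and wild type (WT) mice, 2 per genotype, all female C57BL/6 animals at post natal week 8 per the labels. The sources used here do not say whether each library is a single animal, so p-values measure the spread between libraries. The KO allele had been made by injecting Cas9 mRNA and a guide RNA into C57BL/6 zygotes and is not restricted to a cell type. Both groups received BLM, a cytotoxic antibiotic used to induce local skin fibrosis, as subcutaneous injections every other day for 28 days, and no untreated skin is among these libraries. Each comparison is therefore between genotypes within BLM-treated skin. Values are FPKM, the fragments assigned to a gene divided by its transcript length and by library depth, so that levels can be set side by side between genes.

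CXC chemokines are small secreted proteins that guide leukocytes along a gradient, named for a pair of cysteines held apart by a single residue. Cxcl1, Cxcl2, Cxcl3 and Cxcl5 bind the receptor Cxcr2 and draw neutrophils, and their transcription is driven by NF-kappaB downstream of IL-1, TNF and IL-17. Cxcl9 and Cxcl10 are induced by interferons and bind Cxcr3 on activated T cells. Cxcl12 is a homeostatic ligand of Cxcr4 made by stromal cells, Cxcl13 attracts B cells through Cxcr5, Cxcl14 is made by epithelia including epidermis, and Cxcl16 is a membrane-anchored ligand of Cxcr6 that is released by cleavage. Gasdermin D, the product of Gsdmd, forms pores in the plasma membrane in pyroptosis, an inflammatory cell death that releases IL-1beta.

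In the genome build of the deposited table, mm9, 7 of the ligands lie on chromosome 5, and 4 of them sit in one stretch. Within 146.6 kb the CXC ligand genes run in the order Cxcl5 (chr5:91188324-91190651), Ppbp, Pf4, Cxcl3 (chr5:91215127-91217119), Cxcl15, Cxcl1 (chr5:91320271-91322141) and Cxcl2 (chr5:91332925-91334964). Cxcl9 (chr5:92750357-92757105) and Cxcl10 (chr5:92775665-92777915) are separate neighbours on the opposite strand, 18.6 kb apart. Cxcl11 follows 10.7 kb beyond Cxcl10 on that same strand, and Cxcl13 lies further along at chr5:96385958-96390087. Cxcl12 is at chr6:117118553-117131386, Cxcl14 at chr13:56390006-56397912 and Cxcl16 at chr11:70267736-70273486. Counted in the longest annotated coding transcript of each gene, there are 4 exons except in Cxcl2 with 3 and Cxcl16 with 5.

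Promoter sequence is shown for the 3 neighbours Cxcl1, Cxcl2 and Cxcl3, because the same letters recur in them. RefSeq sequence on GRCm38.p6, a later build than that of the table, was found for 8 of the 10 ligands (not for Cxcl5 and Cxcl16), and the 250 bases before the start were searched on both strands. The windows below run 5′ to 3′ from base 120 to base 41 before the start. They lie on the plus strand at chr5:90891125-90891204 for Cxcl1, chr5:90903779-90903858 for Cxcl2 and chr5:90785981-90786060 for Cxcl3, and capitals mark matches to the kappaB consensus, the NF-kappaB binding motif:
Cxcl1: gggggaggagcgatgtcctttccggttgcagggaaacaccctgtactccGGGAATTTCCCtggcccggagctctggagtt
Cxcl2: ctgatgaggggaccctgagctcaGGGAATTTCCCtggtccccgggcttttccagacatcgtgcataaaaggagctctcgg
Cxcl3: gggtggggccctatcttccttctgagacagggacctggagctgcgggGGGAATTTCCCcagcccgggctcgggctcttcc

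The capitals in each are a pair of overlapping kappaB matches, one on each strand, and they spell the same 11 letters in the 3 promoters. Those 11 letters are the longest run shared by all 3 of these promoters, and 14 of the 32851 mouse promoters in the RefSeq table hold them on either strand (0.0426%). The kappaB consensus as a whole matched in 4 of the 8 ligands' promoters, Cxcl1, Cxcl2, Cxcl3 and Cxcl10, against 7.25% of all promoters. A match describes letters and does not show that a factor binds there.

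The interferon-induced ligand Cxcl10 and the epithelial ligand Cxcl14 are shown because they were the only ligands of the 8 whose promoters matched the core of the interferon-stimulated response element, GAAANNGAAA. This core was in 2.98% of all promoters. Both genes lie on the minus strand. The windows run from base 220 to base 81 before the start for Cxcl10 (chr5:92348970-92349109) and from base 180 to base 41 for Cxcl14 (chr13:56296592-56296731), with the response element core and any kappaB matches in capitals:
Cxcl10: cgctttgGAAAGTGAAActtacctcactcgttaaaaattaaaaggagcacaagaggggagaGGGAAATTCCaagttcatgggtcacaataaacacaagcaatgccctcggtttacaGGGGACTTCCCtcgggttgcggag
Cxcl14: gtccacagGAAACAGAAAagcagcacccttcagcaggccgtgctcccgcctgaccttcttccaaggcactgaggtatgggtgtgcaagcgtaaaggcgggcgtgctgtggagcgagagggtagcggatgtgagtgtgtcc

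In Cxcl10 the first run of capitals is the response element core and the later runs are kappaB matches, the last of them made of overlapping ones. In Cxcl14 the only capitals are the response element core. The TATA box letters TATAAA were found in Cxcl3, Cxcl9 and Cxcl13, that is in 3 of the 8, against 12.4% of all promoters. They lay at bases 30 to 25 before the start in Cxcl3 and 46 to 41 in Cxcl13, but at 195 to 190 in Cxcl9. The kappaB matches were thus in ligands whose levels did not overlap between genotypes (Cxcl2 and Cxcl3) and in ligands whose levels did (Cxcl1 and Cxcl10), as given below.

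The targeted gene was checked first. Gsdmd stood at 14.0 and 18.2 FPKM in the WT libraries and at 3.53 and 2.26 FPKM in the KO libraries, lower in KO but not absent. Summed FPKM ranged from 448544 to 462251 per library, and 1 fragment on a transcript of 1 kb was estimated, from the steps between low values, to be worth 0.0572 to 0.0786 FPKM. KO replicate 2 stood apart from the other libraries on the first principal component (75.4, against 6.17 or less elsewhere, with 74.1% of the variance), and 4 of 15 Y-linked genes were above 0 only in this library, labelled female, with a sum of 1.78 FPKM. Several values below are also given without this library. A gene was tested if 2 or more libraries held 1 FPKM or more. Of the 13027 tested genes, 0 (0%) reached an adjusted p under 0.05 with an absolute log2 fold change above 1 in limma with Benjamini-Hochberg adjustment, and 2229 had an unadjusted p under 0.05. A second criterion is therefore used below, an unadjusted limma p under 0.05 with a log2 fold change beyond 1 in either direction. It was met by 539 genes (4.14%) in the lower direction and by 802 (6.16%) in the higher direction, or by 707 and 632 once libraries were rescaled by median-ratio factors. The KO pair lay wholly below the WT pair in 20.5% of tested genes and wholly above it in 35.3%.

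All 10 ligands passed the filter on low values. None reached the adjusted threshold with all 4 libraries, at adjusted p values from 0.19 to 0.979. A fit with a KO library left out holds a single KO library, so no spread between KO libraries enters it. Without KO replicate 1 the log2 fold change was -3.23 for Cxcl2, -3.87 for Cxcl3, -1.37 for Cxcl5 and -1.91 for Cxcl13. Without KO replicate 2 it was -3.82 for Cxcl2, -4.45 for Cxcl3, -1.02 for Cxcl5 and 1.78 for Cxcl13. The unadjusted criterion was met in the lower direction by 3 (Cxcl2, Cxcl3 and Cxcl5), beside the 4.14% of all tested genes, and in the higher direction by 1 (Cxcl14), beside 6.16%. Cxcl5 reached 1 FPKM only in the WT libraries, where it is high, so its place in the count of 3 is a description. In these same 4 genes the groups did not overlap, 3 with the KO pair below (beside 20.5% of all tested genes) and 1 with it above (beside 35.3%), and in the other 6 they did. The median log2 fold change of the 10 was -0.27, beside 0.11 for all tested genes.

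**Figure D1:**
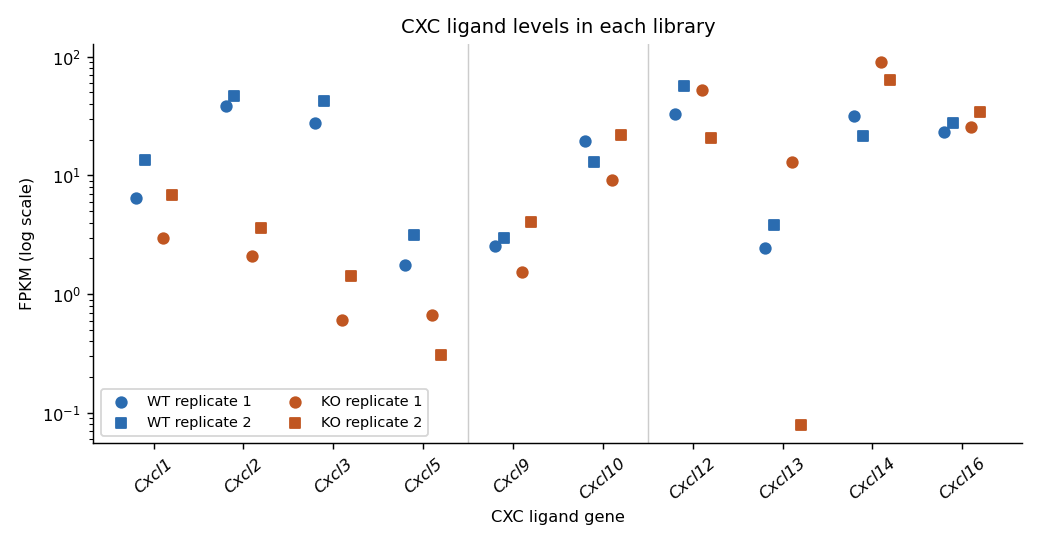
FPKM of each of the 10 ligands on a log axis, with one point per library (blue WT, orange KO; circles replicate 1, squares replicate 2) and grey lines between the Cxcr2 ligands, the Cxcr3 ligands and the others. For Cxcl2, Cxcl3 and Cxcl5 both orange points lie below both blue ones, for Cxcl14 they lie above, and Cxcl13 in KO replicate 2 is the lowest value of all at 0.0790 FPKM.

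Among the neutrophil-attracting ligands, Cxcl2 and Cxcl3 carried the largest differences. Cxcl2 measured 38.8 and 46.6 FPKM in the WT pair against 2.09 and 3.63 FPKM in the KO pair. Cxcl3 measured 27.5 and 42.7 FPKM in the WT pair against 0.609 and 1.41 FPKM in the KO pair. For both genes the 2 KO libraries were far below the 2 WT libraries. The mean of Cxcl2 was 42.7 ± 5.49 FPKM in WT and 2.86 ± 1.10 FPKM in KO (SD, n = 2 each), 14.9-fold lower in KO, and its log2 fold change was -3.52 (SE 0.30, 95% interval -4.29 to -2.75, unadjusted p = 6.99e-05 and adjusted p = 0.19 in limma). The mean of Cxcl3 was 35.1 ± 10.8 FPKM in WT and 1.01 ± 0.565 FPKM in KO, 34.8-fold lower, with a log2 fold change of -4.16 (SE 0.35, interval -5.06 to -3.27, adjusted p = 0.19 in limma). The KO values of Cxcl3 rest on an estimated 8.45 and 18.1 fragments, and the addition of 1 FPKM before the logarithm makes its log2 fold change smaller than the ratio of means. In a bulk library fewer cells of a type cannot be told apart from less RNA per cell. An exact two-sided permutation test of 2 against 2 libraries cannot go below p = 0.333 for any gene.

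The paralogs Cxcl2 and Cxcl3 share 89.8% of their coding bases in the GENCODE annotation of mm9, and the longest run shared by their transcripts is 110 bases, so fragments may have been divided between them. Cxcl1 is 75.6% identical to Cxcl2 and 72.6% identical to Cxcl3, with no shared run above 23 bases, so the counting of Cxcl1 is less exposed to this. The ratio of Cxcl3 to Cxcl2 was 0.708 and 0.917 in WT and 0.292 and 0.388 in KO, that is, lower in both KO libraries than in both WT libraries.

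Cxcl1, which lies beside Cxcl2 in the genome, overlapped between the genotypes. It measured 6.40 and 13.4 FPKM in the WT pair against 2.97 and 6.82 FPKM in the KO pair. KO replicate 2 was above WT replicate 1, so the groups overlapped, and the log2 fold change was -0.89 with an interval from -2.13 to 0.35 (adjusted p = 0.381 in limma). Without KO replicate 2 the value became -1.38 (SE 0.44) and met the unadjusted criterion, while it was -0.40 without KO replicate 1 and -0.41 without WT replicate 2. The ratio of Cxcl2 to Cxcl1 was 6.06 and 3.47 in WT and 0.703 and 0.533 in KO, so that Cxcl2 was the more abundant transcript in both WT libraries and Cxcl1 in both KO libraries. The ratio of Cxcl3 to Cxcl1 was 4.29 and 3.19 in WT and 0.205 and 0.207 in KO. These ratios are within a library and do not depend on the scaling between libraries.

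Cxcl5 was the least abundant of the 4. It measured 1.75 and 3.16 FPKM in the WT pair against 0.663 and 0.307 FPKM in the KO pair. The KO pair was below the WT pair, with a log2 fold change of -1.20 (SE 0.32, interval -2.01 to -0.39, adjusted p = 0.248 in limma). The ratio of means was larger, 5.06-fold, and with an added 0.5 or 0.1 FPKM in place of 1 the log2 fold change was -1.57 or -2.14. The gene passed the filter only through the WT libraries, where it is high, and without WT replicate 2 its log2 fold change was -0.90 and no longer met the unadjusted criterion.

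Both interferon-induced ligands overlapped between the genotypes. Cxcl9 measured 2.53 and 2.96 FPKM in the WT pair against 1.53 and 4.08 FPKM in the KO pair. Cxcl10 measured 19.5 and 13.0 FPKM in the WT pair against 9.12 and 21.9 FPKM in the KO pair. For both, KO replicate 1 was the lowest and KO replicate 2 the highest of the 4 libraries, so the KO values enclosed the WT values. The log2 fold change was -0.06 for Cxcl9 (interval -1.07 to 0.95, adjusted p = 0.944 in limma) and -0.16 for Cxcl10 (interval -1.34 to 1.03, adjusted p = 0.869). The intervals include a change of 1 log2 unit in the lower direction for both, so a difference of that size was within the error. Without KO replicate 1 both values turned positive, to 0.44 and 0.43, and without KO replicate 2 they were -0.56 and -0.74. The ratio of Cxcl10 to Cxcl9 was 7.71 and 4.40 in WT and 5.97 and 5.37 in KO, overlapping between groups. An exon of Cxcl10 overlaps an exon of Art3 on the other strand, and use of strand in the counting is not given in the sources used here.

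Of the remaining ligands, Cxcl14 was the one that met the unadjusted criterion in the higher direction. It measured 31.6 and 21.7 FPKM in the WT pair against 90.0 and 63.4 FPKM in the KO pair. Both KO libraries were above both WT libraries, with means of 26.6 ± 6.99 and 76.7 ± 18.8 FPKM (SD, n = 2 each). This is a 2.88-fold higher mean in KO, and the log2 fold change was 1.49 (SE 0.31, interval 0.69 to 2.30, adjusted p = 0.248 in limma). The value stayed between 1.23 and 1.76 when each library was left out and met the unadjusted criterion each time.

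Cxcl16, the membrane-anchored ligand, had the smallest SE of the 10. It measured 23.1 and 27.4 FPKM in the WT pair against 25.6 and 34.3 FPKM in the KO pair. The groups overlapped, and the log2 fold change was 0.23 (SE 0.27, interval -0.45 to 0.91, adjusted p = 0.647 in limma), an interval that does not reach 1 log2 unit in either direction. An exon of Cxcl16 overlaps an exon of Zmynd15 on the opposite strand.

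The stromal ligand Cxcl12 and the B cell attractant Cxcl13 differed more between the 2 KO libraries than between the genotypes. Cxcl12 measured 33.2 and 56.7 FPKM in the WT pair against 52.5 and 20.6 FPKM in the KO pair. Cxcl13 measured 2.44 and 3.79 FPKM in the WT pair against 13.0 and 0.0790 FPKM in the KO pair. For Cxcl13, KO replicate 1 was the highest and KO replicate 2 the lowest of the 4 libraries, the latter on an estimated 1.18 fragments. The log2 fold change of Cxcl12 was -0.39 (interval -1.72 to 0.94, adjusted p = 0.695 in limma), and leaving out KO replicate 1 gave -1.04 and leaving out KO replicate 2 gave 0.27. That of Cxcl13 was -0.06 (interval -3.10 to 2.97, adjusted p = 0.979), and the same fits gave -1.91 and 1.78. The mean FPKM of Cxcl13 was higher in KO (6.52 ± 9.11) than in WT (3.11 ± 0.959) although its mean log2 value was not, so no direction is given for this gene.

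**Figure D2:**
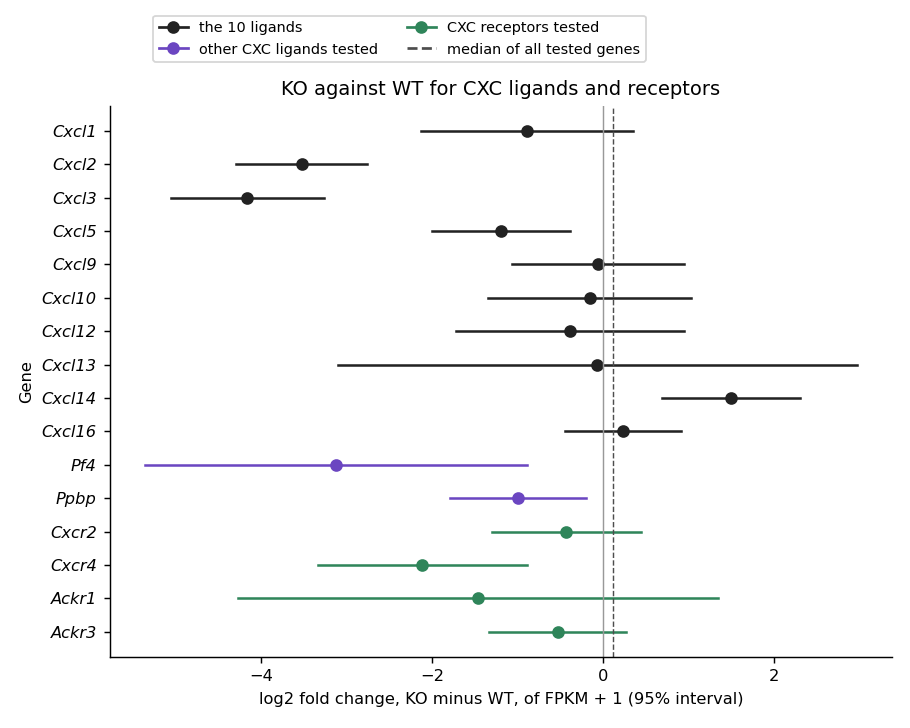
Log2 fold change of FPKM + 1, KO minus WT, from limma with its 95% interval (horizontal axis), for the 10 ligands (black), the other CXC ligands tested (purple) and the CXC receptors tested (green), with the median of all tested genes as a dashed line. The intervals of Cxcl2, Cxcl3, Cxcl5, Cxcl14, Pf4, Ppbp and Cxcr4 exclude 0, while that of Cxcl13 runs from -3.10 to 2.97.

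The order of the ligands by level differed between the groups. In WT, mean FPKM ran from Cxcl12 (45.0) through Cxcl2 (42.7), Cxcl3 (35.1), Cxcl14 (26.6) and Cxcl16 (25.3) to Cxcl10 (16.3), Cxcl1 (9.90), Cxcl13 (3.11), Cxcl9 (2.74) and Cxcl5 (2.45). The ranges of neighbours in this order overlapped except for those of Cxcl16 and Cxcl10 and of Cxcl1 and Cxcl13. In KO, Cxcl14 came first (76.7), with a range wholly above that of Cxcl12 (36.5), followed by Cxcl16 (30.0), Cxcl10 (15.5), Cxcl13 (6.52), Cxcl1 (4.89), Cxcl2 (2.86), Cxcl9 (2.80), Cxcl3 (1.01) and Cxcl5 (0.485). Here the other neighbours whose ranges did not overlap were Cxcl16 and Cxcl10, and Cxcl9 and Cxcl3.

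The summed level of the 10 ligands overlapped between the groups, at 186.8 and 231.4 FPKM in the WT libraries against 198 and 156.6 FPKM in the KO libraries, while several of its parts did not. The 4 neutrophil-attracting ligands made up 39.9% and 45.7% of the sum in WT and 3.20% and 7.77% in KO. Cxcl14 alone made up 16.9% and 9.37% in WT and 45.4% and 40.5% in KO. Cxcl9 and Cxcl10 together made up 11.8% and 6.90% in WT and 5.38% and 16.6% in KO, overlapping. Thus the ligands of Cxcr2 held the larger share in WT and Cxcl14 in KO, in every library.

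**Figure D3:**
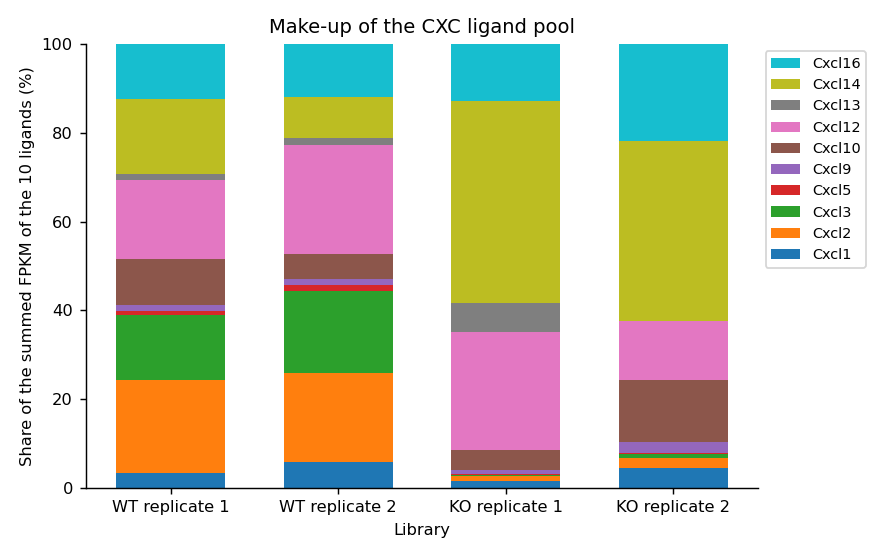
Share of the summed FPKM of the 10 ligands taken by each ligand (percent, stacked bars from 0 to 100) in each of the 4 libraries. Cxcl2 and Cxcl3 (orange and green) take 35.5% or more of the WT bars and 3.22% or less of the KO bars, and Cxcl14 (olive) takes 40.5% or more of the KO bars.

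Other CXC ligands in the table were given for context. Pf4, platelet factor 4, made by megakaryocytes and some macrophages, stood at 226 and 219 FPKM in WT, above every one of the 10 ligands, and at 64.7 and 9.06 FPKM in KO. Both KO libraries were lower, with a log2 fold change of -3.12 (SE 0.88, adjusted p = 0.248 in limma), and -1.76 without KO replicate 2 or -4.47 without KO replicate 1. The unadjusted criterion was lost when either WT library was left out. Ppbp, the platelet basic protein gene next to it, measured 1.34 and 1.96 FPKM in the WT pair against 0.0803 and 0.606 FPKM in the KO pair, with a log2 fold change of -0.998 that missed the unadjusted criterion. It met it with median-ratio factors (-1.05) and with an added 0.5 or 0.1 FPKM in place of 1 (-1.41 and -2.27), but it passed the filter only through the WT libraries, where it is high. Cxcl11, Cxcl15 and Cxcl17 were below 0.3 FPKM in every library and were not tested.

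Of 8 CXC receptor genes, 4 passed the filter, and 1 of them met the unadjusted criterion, in the lower direction. This was Cxcr4, the receptor of Cxcl12, at 12.5 and 17.7 FPKM in the WT libraries against 4.68 and 1.38 FPKM in the KO libraries, with no overlap and a log2 fold change of -2.11 (SE 0.48, adjusted p = 0.248 in limma). It met the criterion with any one library left out. Cxcr2, the receptor of Cxcl1, Cxcl2, Cxcl3 and Cxcl5 on neutrophils, measured 1.73 and 1.92 FPKM in the WT pair against 1.76 and 0.590 FPKM in the KO pair, overlapping. The scavenger receptors Ackr1 (WT 18.6 and 23.3 FPKM, KO 25.0 and 1.43 FPKM) and Ackr3, which binds Cxcl12 (WT 25.0 and 27.9 FPKM, KO 23.2 and 13.9 FPKM), did not meet the criterion. The log2 fold change of Ackr1 was -1.46, with 0.25 without KO replicate 2 and -3.17, which met the criterion, without KO replicate 1. Both KO values of Ackr3 lay below both WT values. Cxcr1, Cxcr3, Cxcr5 and Cxcr6 were not tested, and Cxcr3, the receptor of Cxcl9 and Cxcl10, was at 0.734 and 1.17 FPKM in the WT libraries, at 0.343 FPKM in KO replicate 1 and listed at 0 in KO replicate 2. Of the 8 receptors, Cxcr4, Ackr1 and Ackr3 were above 2 FPKM in at least 1 library and the other 5 were not.

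The genes upstream of the neutrophil-attracting ligands were read from a list of the IL-1, TNF, IL-17 and NF-kappaB pathway, of which 13 of 15 genes were tested, 2 met the unadjusted criterion in the lower direction and 2 in the higher. The median log2 fold change of the list was -0.11, beside 0.11 for all tested genes. Il1b, the cytokine matured by the inflammasome, stood at 35.7 and 59.8 FPKM in the WT libraries against 2.49 and 4.65 FPKM in the KO libraries (log2 fold change -3.41, SE 0.39, adjusted p = 0.248 in limma). Tnf stood at 5.42 and 5.38 FPKM in the WT libraries against 1.66 and 1.06 FPKM in the KO libraries (-1.45, SE 0.26). For both cytokines the groups were apart. The 2 higher genes were Il17rc, a subunit of the IL-17 receptor (WT 26.0 and 21.5 FPKM, KO 49.0 and 50.3 FPKM, log2 fold change 1.04), and Nfkbiz, the NF-kappaB cofactor IkappaB-zeta (WT 8.81 and 8.98 FPKM, KO 15.3 and 30.0 FPKM, 1.18). With median-ratio factors the log2 fold change of Il17rc was 0.92 and missed the criterion. Without WT replicate 2 neither of these 2 genes met it, and Nfkbiz also did not without WT replicate 1 or without KO replicate 2 (0.72 in the latter fit). Il1b and Tnf met it with any one library left out. The NF-kappaB subunits Nfkb1 and Rela had log2 fold changes of 0.19 and -0.22, and the inhibitor Nfkbia -0.33, none of which met it. Il17a was listed at 0 in 3 libraries and at 0.0782 FPKM in KO replicate 2, and with Il17f it was not tested, so an IL-17 difference was not detectable at this depth.

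In the interferon list 12 of 14 genes were tested and 1 met the criterion, in the lower direction, with a median log2 fold change of -0.27. It was Irf7, a transcription factor of the type I interferon response, at 80.4 and 132 FPKM in the WT libraries against 40.8 and 16.8 FPKM in the KO libraries (log2 fold change -1.93, SE 0.50, adjusted p = 0.248 in limma). Ifng and Ifnb1 were at 0.238 FPKM or less in every library. Among 6 proteases that act on CXC ligands 5 were tested and 1 met the criterion, Mmp9, a gelatinase of neutrophils and macrophages, at 2.37 and 6.68 FPKM in the WT libraries against 1.23 and 0.564 FPKM in the KO libraries (-1.45, SE 0.47). Neither Irf7 nor Mmp9 met the criterion without WT replicate 2. The proteases that can release Cxcl16 from the membrane, Adam10 and Adam17, had log2 fold changes of 0.47 and 0.25 and did not meet it.

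Markers of the cell types that can make or answer these ligands moved with several of the results. Of 10 macrophage markers, 6 met the unadjusted criterion in the lower direction. Fewer met it when a WT library or KO replicate 2 was left out, and more without KO replicate 1. Their median log2 fold change was -2.63, with -3.945 without KO replicate 1 and -1.085 without KO replicate 2. The summed level of the list was 2125 and 2203 FPKM in the WT libraries against 873.3 and 94.43 FPKM in the KO libraries. Of 8 neutrophil markers, 4 were tested and all 4 met it (1 without WT replicate 2), with sums of 762.7 and 625.3 FPKM in the WT libraries against 310.7 and 151.2 FPKM in the KO libraries. The defining neutrophil marker Ly6g reached 0.238 and 0.0928 FPKM in the WT libraries and was listed at 0 in both KO libraries. The other untested markers Ngp, Ltf and Camp each had their highest value in a KO library, up to 2.51 FPKM for Camp in KO replicate 1. Most of the neutrophil sum came from S100a8 and S100a9, which keratinocytes and macrophages also express. Of the 10 macrophage markers 8 lay wholly below WT. Mrc1 and Cd163 overlapped, and Cd163 was highest in KO replicate 1, at 4.14 FPKM against 2.02 and 2.93 FPKM in WT. The lower Cxcl2, Cxcl3 and Cxcl5 thus went with those 8 lower macrophage markers and with the 4 lower neutrophil markers tested. The part of these cells in the ligand values was not tested.

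The ligands did not track the macrophage markers in the same way in the 2 KO libraries. Expressed as log2(FPKM + 1) of the ligand minus the mean log2(FPKM + 1) of the 10 macrophage markers, Cxcl2 was at -0.78 and -0.83 in WT and at -3.54 and -0.30 in KO, and Cxcl3 at -1.27 and -0.95 in WT and at -4.47 and -1.25 in KO. Relative to these markers both ligands were thus lower than in WT in KO replicate 1 and within 0.6 log2 units of WT in KO replicate 2, where the markers themselves were lowest. Relative to the neutrophil markers, Cxcl2 was at 2.39 and 2.54 in WT and at -0.92 and 0.31 in KO, lower in both KO libraries.

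**Figure D4:**
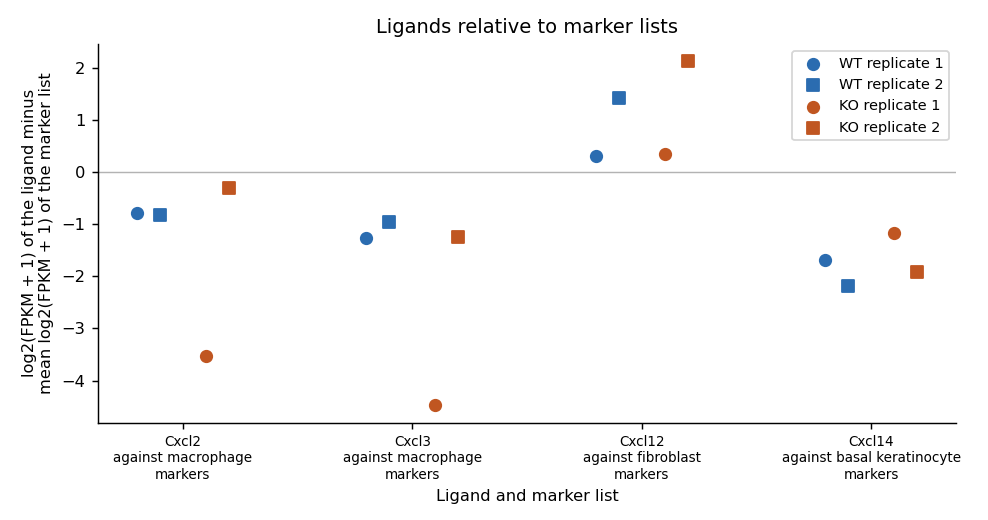
Log2(FPKM + 1) of a ligand minus the mean log2(FPKM + 1) of a marker list (vertical axis), with one point per library (blue WT, orange KO; circles replicate 1, squares replicate 2). For Cxcl2 and Cxcl3 against macrophage markers KO replicate 1 lies at -3.54 and -4.47 while the other 3 libraries lie between -1.27 and -0.30, and for Cxcl14 against basal keratinocyte markers the groups overlap.

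The higher Cxcl14 went with higher basal keratinocyte markers. Of 6 such markers, 5 met the unadjusted criterion in the higher direction, and their sum was 2261 and 2177 FPKM in the WT libraries against 4795 and 5227 FPKM in the KO libraries. The count of 5 became 2 with median-ratio factors, 2 and 1 without WT replicates 1 and 2, and 3 without KO replicate 2. Relative to the mean of these markers on the log2 scale, Cxcl14 was at -1.69 and -2.19 in WT and at -1.17 and -1.92 in KO, so that the groups overlapped. Hair follicle markers summed to 8.57 and 0.906 FPKM in the WT libraries against 341.5 and 10.5 FPKM in the KO libraries. Of 9 such markers 7 were tested, 3 met the criterion in the higher direction (Krt28, Krt35 and Krt85) and 4 lay wholly above WT. Those 3 passed the filter on low values only through the KO libraries, where they are high, so their count is a description. That count of 3 was also 3 without KO replicate 1, 7 without KO replicate 2 and 0 when either WT library was left out. The part of the keratinocyte and hair follicle markers in the Cxcl14 value was not tested.

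Cxcl12 was set against its stromal sources in the same way. The 9 fibroblast markers summed to 369.5 and 277.7 FPKM in the WT libraries against 590 and 53.94 FPKM in the KO libraries, and the 6 endothelial markers to 67.6 and 98.1 FPKM in the WT libraries against 93.0 and 7.88 FPKM in the KO libraries. None of these 15 markers met the criterion, although 7 of the fibroblast and 6 of the endothelial markers met it in the lower direction without KO replicate 1, and both lists were lowest in KO replicate 2, the library with the lowest Cxcl12. Relative to fibroblast markers Cxcl12 was at 0.30 and 1.41 in WT and at 0.34 and 2.12 in KO, and relative to endothelial markers at 1.84 and 2.07 in WT and at 2.10 and 3.39 in KO. T cell markers summed to 7.75 FPKM or less in every library, and neither of the 2 tested met the criterion. The log2 fold change of Cd3e was -0.38, with -1.06 without KO replicate 1 and 0.30 without KO replicate 2. For Cd3g these values were 0.14, -0.39 and 0.67. B cell markers summed to 3.05 FPKM or less, and 0 of the 4 were tested. Adipocyte markers summed to 1753 and 4798 FPKM in the WT libraries against 2221 and 208.1 FPKM in the KO libraries, with 0 of 5 meeting the criterion. Their median log2 fold change was -1.99, with -3.68 without KO replicate 1 and -0.31 without KO replicate 2. Skeletal muscle markers summed to 19950 and 18910 FPKM in WT and were lower in KO, at 12240 and 12490 FPKM, with 4 of 5 wholly below WT and 1, Myh4, meeting the criterion in the lower direction, which it did not without WT replicate 1. The part of these tissues in the ligand values was not tested. Suprabasal keratinocyte markers summed to 2910 and 1569 FPKM in the WT libraries against 6280 and 742 FPKM in the KO libraries. Of the 5 tested, 1 (Dsg1a) met the criterion in the higher direction, 5 did without KO replicate 2, and without KO replicate 1 it was met by 1 in each direction. Without WT replicate 2 none did, and Dsg1a moved from 1.63 to 0.86.

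The 3 tested genes with the most similar profile to each ligand were found by the distance between log2(FPKM + 1) values over the 4 libraries, each gene centred on its own mean. For Cxcl2 these were Il1b (distance 0.36), the myeloid lectin Clec4d (0.604) and the chemokine Ccl4 (0.65), and for Cxcl3 they were Cxcl2 (0.688), Il1b (0.76) and Cd14, a co-receptor for bacterial lipopolysaccharide (1.11). For Cxcl14 they included Ovol1, a transcription factor of epidermal differentiation (0.131), and BC117090 (0.19). For Cxcl13 they were Eln, the elastin gene (0.742), Cpxm1 (0.841) and Ccl21a (0.86). For the others the nearest gene was Hist1h4d for Cxcl1 (0.174), Upp1 for Cxcl5 (0.0728), Mc5r for Cxcl9 (0.141), Sar1b for Cxcl10 (0.182), Pxdn for Cxcl12 (0.0965) and Thg1l for Cxcl16 (0.0179). With 4 libraries many genes can share a profile, and these distances are a description.

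Leaving out one library at a time kept the direction of Cxcl1, Cxcl2, Cxcl3, Cxcl5, Cxcl14 and Cxcl16 and not that of Cxcl9, Cxcl10, Cxcl12 and Cxcl13. Over these 4 fits the log2 fold change of Cxcl2 ranged from -3.82 to -3.23 and that of Cxcl3 from -4.47 to -3.85. Both met the unadjusted criterion each time. The lone library of a group was assumed in these fits to vary like the other group.

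**Figure D5:**
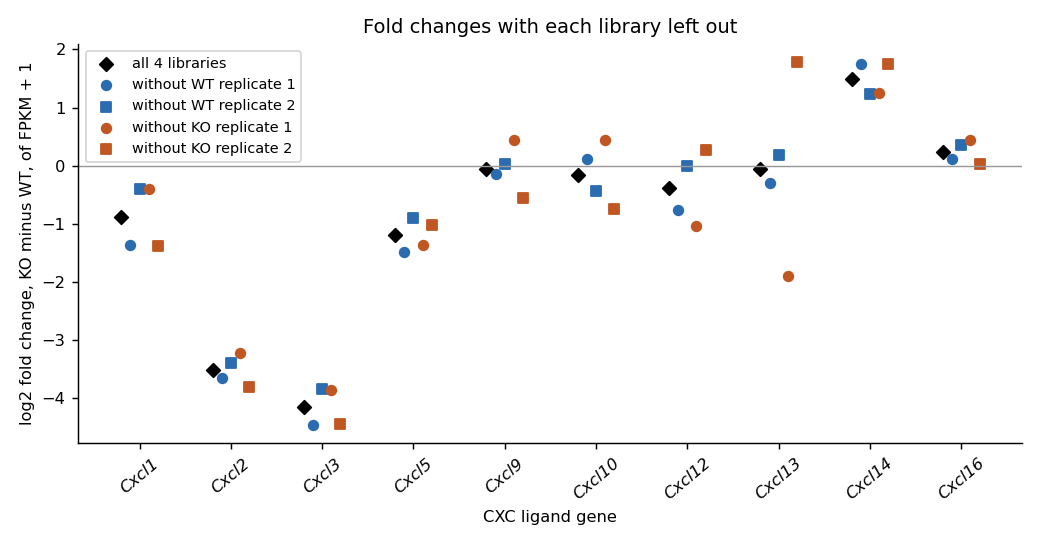
Log2 fold change of FPKM + 1, KO minus WT, for each ligand with all 4 libraries (black diamonds) and with one library left out (blue, a WT library; orange, a KO library). Cxcl2 and Cxcl3 stay below -3.2 and Cxcl14 above 1.2 in every fit, while Cxcl13 runs from -1.91 to 1.78.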

How the data were processed

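RNA-seq of skin was analysed in 4 libraries, grouped by the genotype in their labels. The deposited table is named as counts, but 99.993% of its values above 0 are not whole, and it was read as FPKM that the authors had computed. The labels name HISAT2 version 2.0.1, StringTie version 2.0.6 and mm9, while the study's methods describe featureCounts, so the program behind the FPKM values is uncertain. The ligands, gene lists and tests were chosen with earlier results of these data known. Genes at 1 FPKM or more in 2 or more libraries were kept, and genotype was fitted to log2(FPKM + 1) by limma (version 3.58.1, run under R version 4.3.3) with a mean-variance trend and Benjamini-Hochberg adjustment. The step was tested on made-up values with known changes. Named genes were the ligands, Gsdmd, genes of the lists described and the 3 nearest profiles per ligand, and some genes under this rule are not reported here. Alternatives were the pseudocount, filter, scaling, trend, replicate block and each library left out. Depth was estimated from fragment steps, limits precision at low FPKM, and gives no interval. Same-numbered libraries were not paired. Protein sequences were not analysed here. Tables used Python version 3.11.15 and pandas version 2.3.3.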

Additional observations from a re-analysis of the deposited data

How the results depend on the processing

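The number of genes past the adjusted threshold was 0 under every alternative except when KO replicate 1 (2058) or KO replicate 2 (43) was left out, a range of 0 to 2058 over the leave-one-out fits. The number of ligands that met the unadjusted criterion in the lower direction was 3 and ranged from 2 to 5 when one library was left out, and in the higher direction it was 1 and ranged from 1 to 2. The 5 without KO replicate 1 were Cxcl2, Cxcl3, Cxcl5, Cxcl12 and Cxcl13, with 12.3% of all tested genes lower in that fit, and the 2 higher ones without KO replicate 2 were Cxcl13 and Cxcl14, with 5.63% of all tested genes higher. With a filter of at least 5 FPKM, 7 ligands were tested and 2 (Cxcl2 and Cxcl3) met the criterion in the lower direction, beside 4.4% of all genes tested. Both passed that filter only through the WT libraries, where they are high, so this count is a description.

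Among single ligands, 97 values under the other settings kept direction and side of the unadjusted criterion, as did 29 of those with a library left out. The reversed values were those of Cxcl9 (-0.56 to 0.44), Cxcl10 (-0.74 to 0.43), Cxcl12 (-1.04 to 0.27) and Cxcl13 (-1.91 to 1.78), each given as its range over the leave-one-out fits. The cause was not tested. With the replicate number as a block (replicate block), 0 genes passed the adjusted threshold and the ligand counts were 3 lower and 1 higher, as without it, with 686 lower and 907 higher genes overall. The crossed replicate block gave 0, 3 and 1 as well, beside 5.23% of all tested genes lower and 6.29% higher (5.27% and 6.96% with the replicate block). The deviations of same-numbered libraries correlated at -0.20 over 13027 genes. Median-ratio factors took the all-gene median from 0.11 to 0.009 on the log2 scale and the fold change of Cxcl14 to 1.38, and reversed no ligand.

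Depth limits the low ligands, Cxcl3 and Cxcl5 in KO and Cxcl13 in KO replicate 2.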

Other observations

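The 2 KO libraries differed from each other in opposite directions for different ligands. Cxcl1, Cxcl2, Cxcl3, Cxcl9 and Cxcl10 were higher in KO replicate 2 than in KO replicate 1, by 2.30-fold, 1.74-fold, 2.31-fold, 2.67-fold and 2.40-fold, as were Cxcl16, by 1.34-fold, and Il1b, by 1.87-fold. In the same pair all 10 macrophage markers were lower in KO replicate 2, with a sum 9.25-fold higher in KO replicate 1, and all 9 fibroblast and all 6 endothelial markers were lower there too. Cxcl5, Cxcl12, Cxcl13 and Cxcl14 were lower in KO replicate 2. These are single libraries, and no test applies.

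The neighbouring genes of the Cxcl5 to Cxcl2 stretch differed in level by more than 100-fold in WT, from Cxcl15 at 0.251 FPKM or less to Pf4 at 219 FPKM or more.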
